A study of Mus musculus with 6 samples.

Results

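Mettl21c, Smyd1, Smyd2 and Smyd3 encode enzymes that add methyl groups to lysines of proteins and that have been studied in muscle. They were taken as the 8 array probes annotated to these 4 gene symbols, out of 45281 probes and 19057 genes with a probe on the array. The genes were chosen by name with their log2 signals in both groups, and so the difference between the genotypes, already known. Their values are therefore given as a description with no test.

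The samples were tibialis anterior muscles, which in mice consist largely of fast fibres, from male mice aged 3 months. There were 3 arrays labelled wild type (WT) and 3 labelled PGC1b transgenic (TG), and each was read in 1 colour on an Illumina Mouse WG-6 v2 BeadChip. PGC-1β, the product of Ppargc1b, is a coactivator known to raise mitochondrial genes. The labels give neither the promoter of the transgene, nor the strain, nor whether each array is a separate animal, so every spread and p-value here measures these arrays, and the spread may be technical.

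Protein lysine methyltransferases transfer a methyl group from S-adenosylmethionine to lysine side chains. SMYD proteins hold a SET domain, the catalytic fold of most histone lysine methyltransferases, split by a zinc-binding MYND domain. SMYD1 is found mainly in skeletal muscle and heart and is needed for heart development in the mouse and for myofibril assembly in zebrafish. SMYD2 methylates histones and also cytosolic proteins such as HSP90 and, in human cells, p53 and RB1, and it is found with titin at the sarcomere. SMYD3 methylates histones and the kinase MAP3K2. METTL21C has a different catalytic fold, that of the seven-beta-strand methyltransferases. It acts on non-histone proteins and has been reported in mouse muscle to methylate the ATPase VCP and to occur in slow fibres.

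The groups were checked first. The single probe of Ppargc1b was lower, not higher, in TG, at 9.23 ± 0.33 in WT and 7.91 ± 0.32 in TG on the log2 scale (SD, n = 3; limma adjusted p = 0.000734), so each direction below rests on the labels alone. Between 15338 and 15691 probes per WT array and between 17525 and 17604 per TG array had a detection p under 0.05, which sets a probe above the negative controls of its array. All 13 skeletal muscle fibre markers passed the filter on dim probes in these muscle samples, among them Tnnc2 and Mylpf, a fast troponin and a fast myosin light chain gene. A level is the log2 of the signal once corrected for background and quantile normalized, differences are TG minus WT, and 3 arrays per group limit the precision of all of them.

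RefSeq promoter windows (GRCm38.p6, 250 bases before to 50 bases after the gene start) were matched for 2 of the 4 genes, Smyd1 and Smyd2, which had the smallest and the largest difference among the SMYD genes. Those of Mettl21c and Smyd3 were not analysed here. The windows of Smyd1 and Smyd2 are shown 5′ to 3′ on the gene's strand. Capitals mark the letters of a TATA box (TATAAA) in Smyd1 and of GC boxes (GGGCGG) in Smyd2. All of them are matches on the opposite strand, so the Smyd1 letters do not run in the direction of the gene.
Smyd1, chr6:71262232-71262531, minus strand: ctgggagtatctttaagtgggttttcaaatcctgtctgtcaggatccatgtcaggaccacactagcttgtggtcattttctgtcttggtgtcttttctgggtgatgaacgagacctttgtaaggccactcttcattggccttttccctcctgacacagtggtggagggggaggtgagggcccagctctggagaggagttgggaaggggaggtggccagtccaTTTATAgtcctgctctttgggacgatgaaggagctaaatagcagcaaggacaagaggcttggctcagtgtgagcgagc
Smyd2, chr1:189922242-189922541, minus strand: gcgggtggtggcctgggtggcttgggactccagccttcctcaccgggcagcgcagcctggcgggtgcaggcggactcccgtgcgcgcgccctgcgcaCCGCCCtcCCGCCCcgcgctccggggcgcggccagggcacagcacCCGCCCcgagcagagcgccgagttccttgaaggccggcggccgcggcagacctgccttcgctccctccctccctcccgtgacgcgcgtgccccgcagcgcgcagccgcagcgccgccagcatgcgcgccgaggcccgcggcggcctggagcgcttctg

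The Smyd2 window had a GC content of 79% and 43 CpG dinucleotides, against medians of 52.7% and 7 over 32841 promoter windows of the same length. The Smyd1 window had a GC content of 52% and 3 CpG dinucleotides. The TATA box letters of Smyd1 began 28 bases before the gene start, and 13.6% of all windows hold them on either strand. Smyd2 held 3 GC boxes, letters found in 35.7% of windows. Neither window held an E-box (CANNTG, the letters bound by MyoD, in 72.3% of windows), an ERR half-site (AAGGTCA, in 4.72%), an M-CAT element (CATTCC, in 14.7%), a CArG box (in 1.63%) or a MEF2 site (in 3.19%), each searched on both strands. A missing match says only that these letters are not in this window.

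All 4 genes were lower in TG, and their differences spanned a wide range. For each gene the detected probe with the highest mean log2 signal is its leading probe. The 3 TG values of the leading probe lay below the 3 WT values in 4 of 4 genes, where 32.3% of the 9978 genes tested had such values. A difference of at least 2-fold downwards was seen in 3 of 4, against 6.45% of genes tested. With arrays scaled to the median of all probes these counts were 3 and 2, since the Smyd1 groups then overlapped and Smyd3 was under 2-fold lower. Without background correction, or with an offset of 50, 2 of 4 were at least 2-fold lower. Both counts follow from the contrast on which the genes were picked. In whole muscle, fewer cells of a type and less RNA per cell cannot be told apart.

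**Figure D1:**
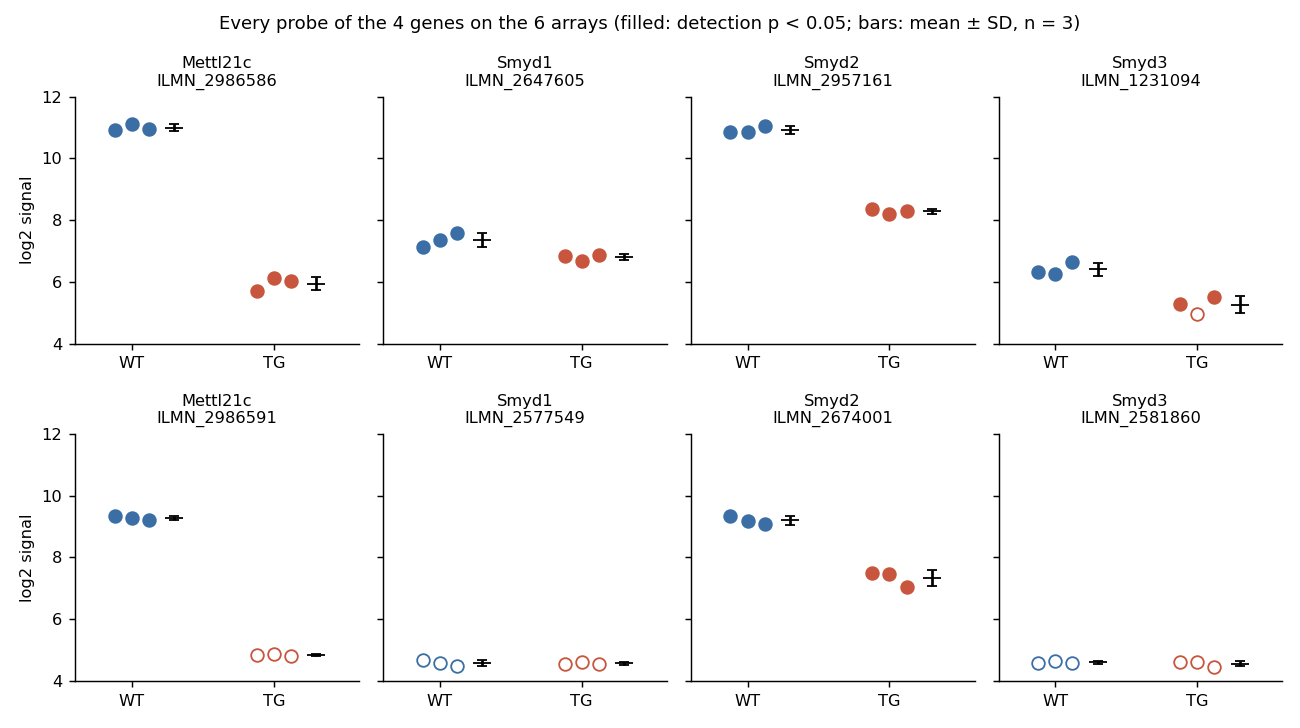
Log2 signal (y axis) of the 8 probes of Mettl21c, Smyd1, Smyd2 and Smyd3 on the 3 WT (blue) and 3 TG (red) arrays, with the leading probe of each gene in the upper row; filled points have a detection p under 0.05 and black bars are the mean ± SD (n = 3). Both Mettl21c probes are over 4 log2 units lower in TG, both Smyd2 probes are lower in TG, and the second probes of Smyd1 and Smyd3 are open on every array.

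Mettl21c, the methyltransferase of non-histone proteins, had the largest difference of the 4. Its leading probe (ILMN_2986586) had signals of 1968.2, 2205.4 and 1895.2 on the WT arrays and 118.3, 137.2 and 118.6 on the TG arrays, before any correction. The WT arrays were all high and the TG arrays all low, and the TG signals were still above background on 3 of 3 arrays. On the log2 scale the level was 10.99 ± 0.12 in WT and 5.95 ± 0.21 in TG (SD, n = 3), a difference of -5.05, or 33.1-fold. Only 1 other of the 9978 genes was lower by at least that much, the slow myosin light chain gene Myl3 (-6.61). The lowest WT value exceeded the highest TG value by 4.80 log2 units.

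The second Mettl21c probe (ILMN_2986591) gave the same picture from a dimmer signal. Its signals were 674.3, 624.7 and 592.8 on the WT arrays and 84.6, 84.5 and 76.5 on the TG arrays. It was above background on 3 WT arrays and on 0 TG arrays, with TG detection p-values of 0.0855, 0.0694 and 0.104. The TG level is therefore only a bound, and WT was at least 19.5-fold higher. That bound replaces a TG value by the dimmest detected signal of its array where the probe itself was dimmer. The measured means were 9.28 ± 0.06 in WT and 4.84 ± 0.04 in TG (SD, n = 3). In the authors' processed table, on a linear scale after background subtraction, the leading probe read 1904.6, 2222.6 and 1950.3 in WT and 36.5, 53.3 and 49.5 in TG.

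Mettl21e, a muscle-expressed relative of Mettl21c in the mouse, could not be followed in the same way. It and Mettl21a are named here after their values were seen. One of its probes (ILMN_1246249) read 71.7, 88.4 and 78 in WT and 87.3, 72 and 77.7 in TG, above background on 1 of 6 arrays. The other (ILMN_1238139) was above background on 0 of 6 arrays. The groups overlapped at the level of the negative controls, so no difference was detectable in either direction. Mettl21a, the family member that methylates HSP70 chaperones, had a difference of -0.04 (limma adjusted p = 0.863). Its probe was also close to background, at 5.34 in WT and 5.30 in TG on the log2 scale. It was above background on 2 WT and 3 TG arrays, so a difference could be hard to see.

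Smyd2 had the second largest difference, and its 2 probes were both above background on all arrays. The leading probe (ILMN_2957161) had signals of 1898.9, 1815.5 and 2070 on the WT arrays and 448, 385.7 and 355.4 on the TG arrays. The WT arrays were all high and the TG arrays all low, with no overlap. Its log2 level was 10.92 ± 0.12 in WT and 8.28 ± 0.09 in TG (SD, n = 3), a difference of -2.64, or 6.22-fold. Counting Smyd2 itself, 35 of the 9978 genes tested were lower by at least as much. The second probe (ILMN_2674001) had signals of 679.9, 581.1 and 541.2 in WT and 272.1, 258.8 and 184.8 in TG, again with no overlap. Its log2 difference was smaller, -1.87, or 3.65-fold. The probes thus shared the direction and differed in size by 0.77 log2 units, and which part of the mRNA each one matches was not examined.

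Smyd3, the methyltransferase of histones and MAP3K2, lay close to background. Its leading probe (ILMN_1231094) had signals of 123.8, 118.1 and 138 on the WT arrays and 99.4, 87.7 and 98.8 on the TG arrays. It was above background on 3 of 3 WT arrays and on 2 of 3 TG arrays, with a detection p of 0.0545 on TG replicate 2. The log2 level was 6.41 ± 0.21 in WT and 5.25 ± 0.27 in TG (SD, n = 3), a difference of -1.16, or 2.24-fold. Of the genes tested, 446 (4.47%), Smyd3 itself included, were lower by at least as much. A probe this dim depends on the background step: without background correction the difference was -0.53, and with a larger offset of 50 it was -0.72. The second probe (ILMN_2581860) was above background on 0 of 6 arrays, with signals of 62.6 to 74.6.

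Smyd1, the striated muscle member, had the smallest difference. Its leading probe (ILMN_2647605) had signals of 177.7, 193.9 and 218.5 on the WT arrays and 196.6, 177.4 and 169.4 on the TG arrays, all above background. Before normalization the groups overlapped, with TG replicate 1 above 2 of the 3 WT arrays. After quantile normalization the log2 values were 7.12, 7.35 and 7.59 in WT and 6.84, 6.68 and 6.86 in TG, and no longer overlapped. The level was 7.35 ± 0.23 in WT and 6.80 ± 0.10 in TG (SD, n = 3), a difference of -0.55, or 1.47-fold. Of all genes tested, 59.9% had a difference closer to 0 and 18.9% were lower by at least as much. With arrays scaled to the median of all probes the difference shrank to -0.21 and the groups overlapped, and without background correction it was -0.37. The second Smyd1 probe (ILMN_2577549) was above background on 0 of 6 arrays, with signals of 67.2 to 75.1.

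The spread between arrays was small beside the larger differences. The SD of the leading probes ran from 0.12 for Mettl21c to 0.23 for Smyd1 in WT and from 0.09 for Smyd2 to 0.27 for Smyd3 in TG, where the median gene had 0.14 and 0.16. The order of the differences, Mettl21c, then Smyd2, then Smyd3, then Smyd1, had gaps of 2.41, 1.47 and 0.61 log2 units between neighbours. The last gap, between Smyd3 and Smyd1, was 0.16 without background correction and 0.28 with an offset of 50. Levels of the different genes were not ranked, since each probe has its own brightness.

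**Figure D2:**
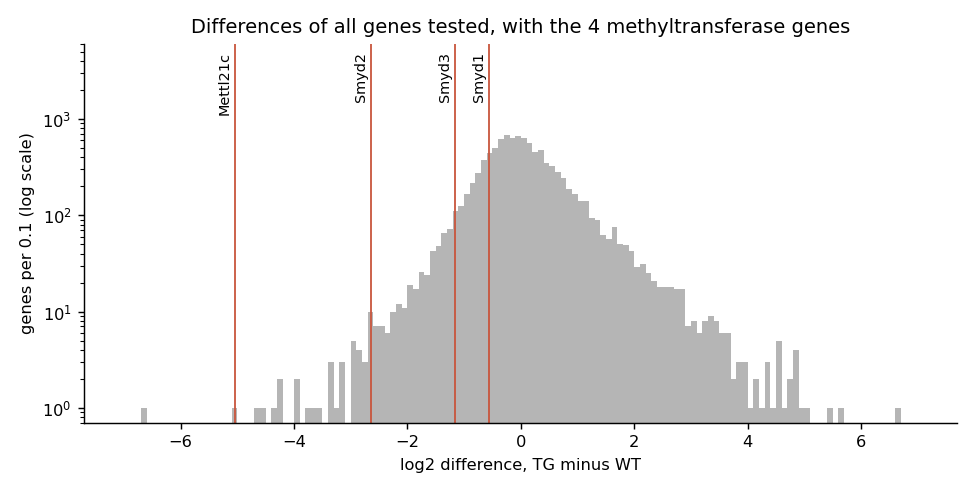
Histogram of the log2 difference, TG minus WT, of the 9978 genes tested (number of genes per 0.1 on a log axis), with red lines at the leading probes of Mettl21c (-5.05), Smyd2 (-2.64), Smyd3 (-1.16) and Smyd1 (-0.55). Mettl21c lies at the far lower edge, and Smyd1 lies within the body of the distribution.

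These differences sat in a broad difference between the groups. Of 9978 genes, 5613 (56.3%) passed an adjusted p of 0.05 in limma, 28.1% higher and 28.2% lower in TG. With arrays scaled to the median of all probes, 3766 were higher and 1606 lower, so that 70.1% of calls were higher against 49.9%, and the median difference of all genes moved from -0.03 to 0.19. Relative to that median the differences of Mettl21c, Smyd2, Smyd3 and Smyd1 were -5.05, -2.70, -1.05 and -0.40. With arrays scaled to the median of probes detected on all arrays, 2719 genes were higher and 2957 lower. Then 47.9% of calls were higher, and the median difference was -0.06.

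Markers of other cells and fibre types differed between the same groups. All 11 macrophage markers measured rose, and their summed normalized signal went from 2368 to 2858 per WT array to 15348 to 26998 per TG array. Of 9 fibroblast and matrix markers 8 rose and 0 fell, with sums of 13026 to 13914 in WT and 22507 to 27499 in TG, and Postn was not detected. The 13 muscle fibre markers summed to 267799 to 274649 in WT and 249469 to 250974 in TG, with 2 up and 4 down. Bright probes weigh most in this sum, and Tnnc2 had the same value, 14.91, on all 3 WT arrays (SD of 0). Whether probes this bright could still show a difference was not tested. Of 11 fast-fibre markers 4 fell and 0 rose, with sums of 238320 to 243418 in WT and 180704 to 188008 in TG. Myh4 (-3.91), Actn3 (-3.61) and Mybpc2 (-2.11) fell most, and Tnnt3 fell by 0.33. The others ran from -0.13 (Tnni2) to 0.23 (Myh1) and were not called. Of 8 slow-fibre markers 5 rose and 2 fell, with sums of 7759 to 9989 in WT and 7756 to 10301 in TG. Myh7, the slow myosin gene, was not detected on any array. Among the 5 that rose, Tnni1 was above background on 0 WT and 3 TG arrays, so its call could only be upwards. Myl3, named above, is 1 of the 2 that fell, and without it the other 7 summed to 3635 to 4255 in WT and 7719 to 10255 in TG. Among 10 endothelial markers 2 fell, with sums of 8560 to 9030 in WT and 7503 to 8906 in TG. Of 5 satellite cell markers 3 rose and 1 fell, with sums of 641 to 868 in WT and 1029 to 1230 in TG, and Pax7 and Myf5 were not detected. Those that rose were Ncam1 (2.48), Vcam1 (1.68) and Cd34 (0.39). Cdh15 fell (-1.04), and Myod1, at -0.42, was not called (limma adjusted p = 0.0916). The markers thus moved in both directions, and the rising sum does not stand for each of them. The part of these cells in the values of the 4 genes was not tested.

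The genes whose values over the 6 arrays were closest to each of the 4 were found by the root mean square difference of log2 values centred on each gene's mean. For Mettl21c they were Myoz3, a Z-disc protein gene (0.30 log2 units), the spermine oxidase gene Smox (0.37) and the protein phosphatase inhibitor gene Ppp1r1a (0.40). These are 3 other genes with very large differences (-4.62, -4.53 and -4.38), and 0 genes came within 0.2 log2 units of Mettl21c. For Smyd2 they were the junctophilin gene Jph2 (0.09), the muscle glycogen phosphorylase gene Pygm (0.10) and the elongation factor 2 kinase gene Eef2k (0.11). There were 24 genes within 0.2.

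For Smyd3 the closest genes were the limb homeobox gene Hoxc10 (0.05), the translational repressor gene Paip2b (0.08) and the secretin receptor gene Sctr (0.09), among 203 genes within 0.2. For Smyd1 they were the ciliary transport gene Ift122, Epb41l4a and Dnajc27, each at 0.05, among 1261 genes within 0.2. Closeness is easily reached by a gene with a small difference, so the last lists describe little beyond its size. The points share 6 arrays in 2 groups. The group difference set between 0.731% (Jph2 to Smyd2) and 88.7% (Pygm to Smyd2) of the squared distances, and the deviations within groups set the rest.

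**Figure D3:**
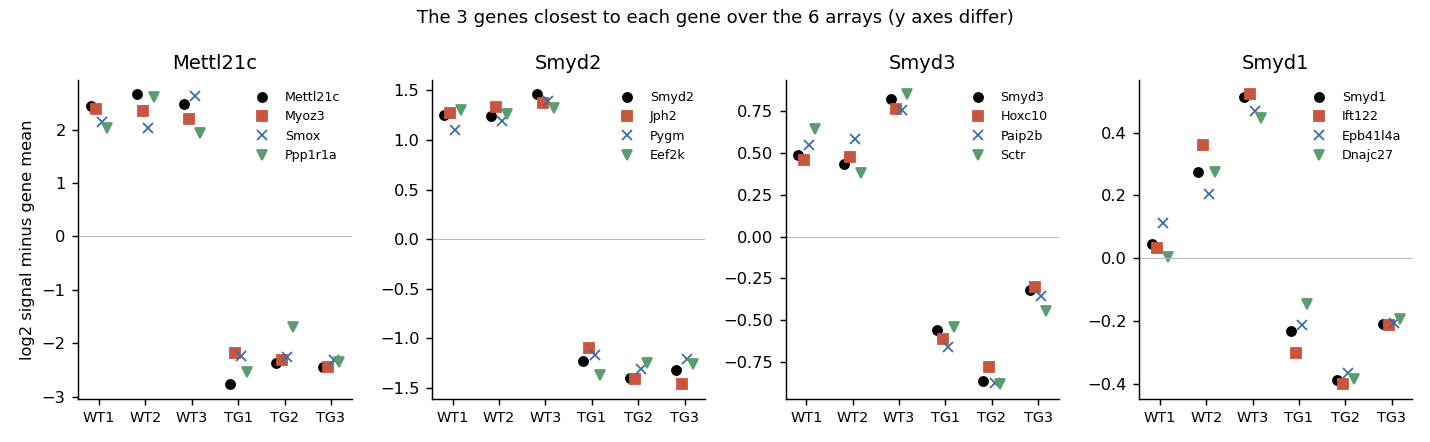
Log2 signal minus the gene's mean over the 6 arrays (y axes differ between panels) for Mettl21c, Smyd2, Smyd3 and Smyd1 (black) and the 3 genes closest to each, by array. The 3 genes nearest Mettl21c are 0.30 to 0.40 log2 units away, and those nearest Smyd1 are all 0.05 away.

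Of the protein-coding genes next to the 4 on the chromosome, in the RefSeq order, 5 were measured. In limma 2 of them rose and 0 fell, where 28.1% of all genes rose and 28.2% fell. One of the 2, Prox1, passed the filter only through its TG arrays, so its call could only be upwards. Tpp2, a peptidase gene beside Mettl21c, had a difference of 0.04 (adjusted p = 0.869). Krcc1, beside Smyd1, had 0.06 (adjusted p = 0.658), and Tfb2m, a mitochondrial transcription factor gene beside Smyd3, had 0.19 (adjusted p = 0.242). On either side of Smyd2, the phosphatase gene Ptpn14 rose by 0.44 (adjusted p = 0.0337), with 0.26 for its second measured probe. The homeobox gene Prox1 was above background on 3 TG and 0 WT arrays, so its WT level is only a bound. TG was at least 1.10-fold higher. The limma call (adjusted p = 0.0248) is for the measured difference of 0.54, and the bound itself was not tested.

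The other genes of protein methylation were compared next, from lists of its enzymes, their co-substrate and their partners, with limma adjusted p-values over all 9978 genes. A gene entered only if detected on at least 3 arrays, so some could enter through their brighter group alone. Counts of a list read against the 28.1% of all genes that rose and the 28.2% that fell. With arrays scaled to the median of all probes, called median scaling below, more genes rose than fell, and the lists' counts moved as given. With arrays scaled instead to the median of probes detected on all arrays, 3 SET-domain enzymes rose and 8 fell. Among seven-beta-strand enzymes 1 rose and 5 fell, and in arginine methylation 3 rose and 4 fell. Demethylases had 3 that rose and 4 that fell. The S-adenosylmethionine list had 3 and 2, partners and substrates 2 and 4, and muscle transcription factors 1 and 2. The macrophage and matrix markers rose in the same arrays, as above, and their part in these counts was not tested.

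Of 23 SET-domain enzymes measured besides the SMYD genes above, 8 fell, 2 rose and 13 did not pass, with a median difference of -0.14 against -0.03 for all genes. Under median scaling 6 fell and 4 rose, with a median of 0.12 against 0.19. Setd7, which methylates histones and transcription factors, fell from 10.83 ± 0.05 to 9.30 ± 0.36 (SD, n = 3), a difference of -1.53 (adjusted p = 0.000118). Kmt5c, which trimethylates histone H4, rose from 7.47 ± 0.26 to 8.66 ± 0.14 (SD, n = 3), a difference of 1.20 (adjusted p = 0.000229). Setmar, another gene of the list, fell by 0.88 (adjusted p = 0.000887), and the brown-fat regulator gene Prdm16 fell by 0.86 (adjusted p = 0.00378). Both are dim, and without background correction their differences were -0.42 and -0.41, still called. Smyd5, another SMYD gene, had a difference of 0.26 (adjusted p = 0.197), and is named after its value was seen.

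Of 10 other seven-beta-strand lysine methyltransferases, the class of METTL21C, 5 fell and 1 rose, with a median of -0.24. Under median scaling 2 fell and 3 rose. Mettl22 fell from 10.48 ± 0.13 to 9.08 ± 0.12 (SD, n = 3), a difference of -1.40 (adjusted p = 2.58e-05). Eef1akmt1, which methylates the elongation factor eEF1A, fell by 1.40 (adjusted p = 3.22e-05). Mettl13, listed on the array as Eef1aknmt and acting on the same factor, fell by 0.75 (adjusted p = 0.0109), a call lost with arrays scaled to the median of all probes (-0.37, adjusted p = 0.17). Dot1l, which methylates histone H3, rose by 1.17 (adjusted p = 7.89e-05), or by 0.74 without background correction. The list ranged from -1.40 to 1.17, against -5.05 for Mettl21c.

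Of 9 genes of arginine methylation 4 fell and 3 rose, with a median of -0.29. Under median scaling 2 fell and 3 rose. Carm1, which asymmetrically methylates histones and splicing factors, fell by 0.79 (adjusted p = 0.00505), with no call under the scaling to the median of all probes (adjusted p = 0.0546). Prmt7, a monomethylating enzyme, fell by 0.77 (adjusted p = 0.000347), and Prmt5, the main symmetric dimethylating enzyme, fell by 0.76 (adjusted p = 0.000973). Prmt6, which methylates histone H3, rose by 0.55 (adjusted p = 0.00266), with 0.31 without background correction and 0.93 with arrays scaled to the median of all probes.

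The next list held lysine demethylases, which remove the mark, and related oxygenases such as Jmjd6, Kdm8, Riox1 and Riox2. Of its 16 genes measured, 4 rose and 4 fell, near the shares over all genes, with a median of -0.01. Under median scaling 6 rose and 2 fell. Jmjd6, encoding an oxygenase, rose by 0.95 (adjusted p = 7.97e-05) and Kdm1a, encoding the demethylase LSD1, by 0.69 (adjusted p = 0.000604). Kdm8, encoding another oxygenase, fell by 0.73 (adjusted p = 0.00586), as did Kdm1b, a relative of Kdm1a, by 0.73 (adjusted p = 0.0113), the latter with no call under the scaling to the median of all probes (adjusted p = 0.0758).

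Among 11 genes of S-adenosylmethionine supply and use 4 rose and 2 fell, with a median of 0.19. Under median scaling 6 rose and 1 fell. Nnmt, which spends the methyl donor on nicotinamide, rose by 1.09 (adjusted p = 0.00223). Ahcyl1, a relative of the S-adenosylhomocysteine hydrolase, rose by 1.06 (adjusted p = 9.09e-05), and its second measured probe was at 0.46. Ahcy, the hydrolase itself, which clears the inhibitory product of every methyl transfer, fell by 0.59 (adjusted p = 0.00272). That call was lost with arrays scaled to the median of all probes (-0.29, adjusted p = 0.103), and the second measured Ahcy probe was at -1.10. Mtrr, which reactivates methionine synthase, fell by 0.69 (adjusted p = 0.00135), or by 0.28 without background correction.

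Of 8 partners and substrates of the 4 enzymes measured, 4 fell and 2 rose, with a median of -0.21. The counts were 3 that fell and 2 that rose under median scaling. Unc45b, the muscle chaperone that folds myosin and works with HSP90, fell from 11.89 ± 0.16 to 10.61 ± 0.07 (SD, n = 3), a difference of -1.28 (adjusted p = 4.21e-05). Ttn, encoding titin, fell by 0.99 (adjusted p = 0.000132), and its 8 measured probes ranged from -1.88 to -0.11. Hsp90aa1, a chaperone gene, rose by 0.76 (adjusted p = 0.00554; 0.48 without background correction), and the cell cycle regulator gene Rb1 by 0.48 (adjusted p = 0.00912). Vcp, the reported substrate of METTL21C, fell by 0.44 (adjusted p = 0.00618), while Hspa8, a chaperone gene, had a difference of 0.26 (adjusted p = 0.0629) and Naca, whose muscle form binds SMYD1, had -0.03 (adjusted p = 0.828). The last 3 genes are named after their values were seen.

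**Figure D4:**
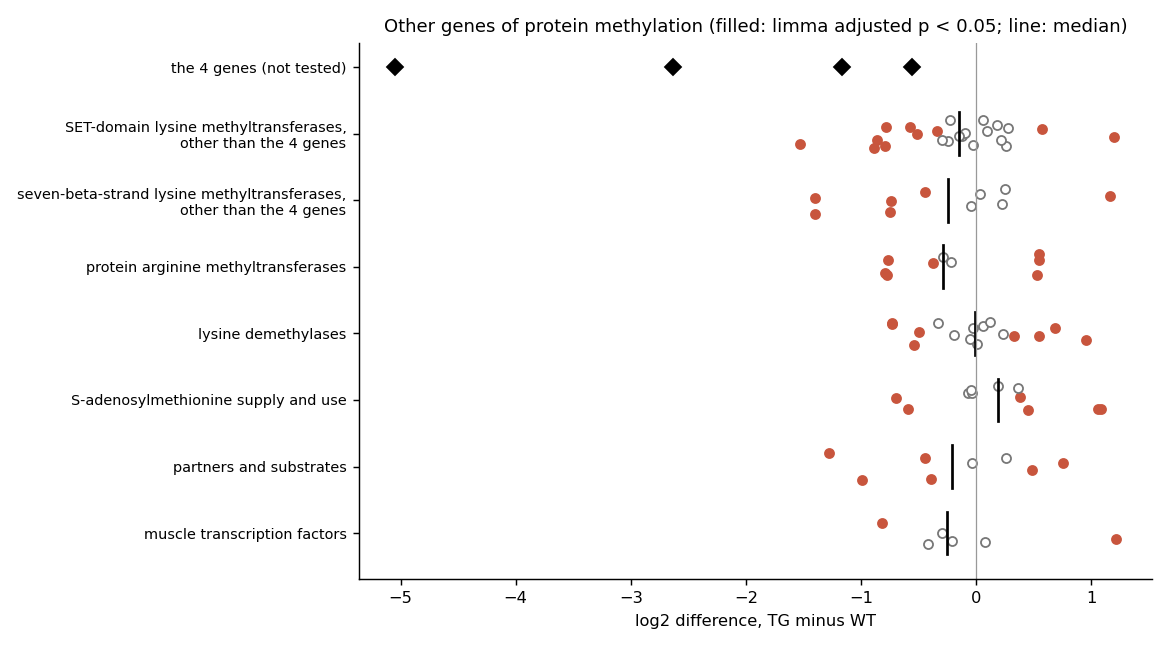
Log2 difference, TG minus WT, of the genes measured in 7 lists (circles, 1 per gene; filled where the limma adjusted p is under 0.05; black line, median of the list), with the leading probes of the 4 methyltransferase genes as black diamonds on top. List genes lie between -1.53 and 1.22, and Mettl21c (-5.05) and Smyd2 (-2.64) lie below all of them.

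Of 6 muscle transcription factors measured 1 rose and 1 fell. Myog, encoding the differentiation factor myogenin, rose from 5.57 ± 0.41 to 6.79 ± 0.18 (SD, n = 3; adjusted p = 0.000996), but its 2 measured probes disagreed, at 1.22 and -0.60, and with their mean the gene was not called (0.31, adjusted p = 0.132). Without background correction its difference was 0.62. Srf, the factor that binds CArG boxes, fell by 0.82 (adjusted p = 0.000682), and its second measured probe was at -0.42.

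**Figure D5:**
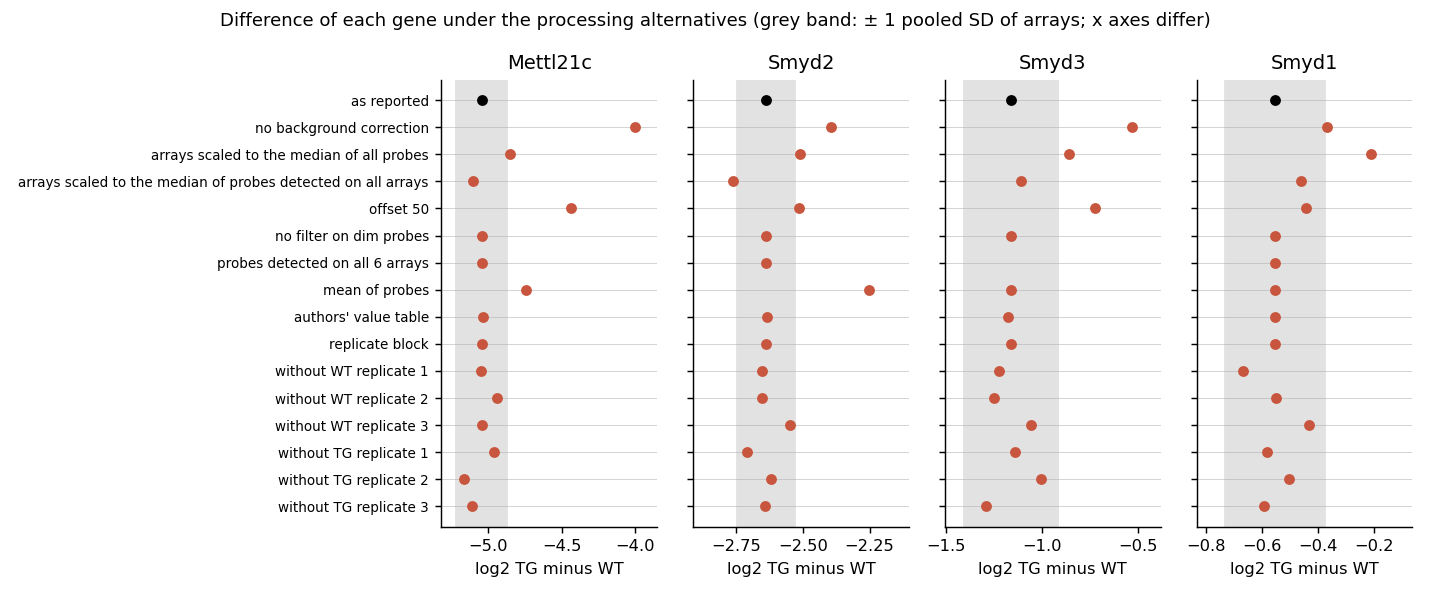
Log2 difference, TG minus WT, of Mettl21c, Smyd2, Smyd3 and Smyd1 (x axes differ) as reported (black) and under each processing alternative (red), with a grey band of 1 pooled SD of the arrays on either side. All values are below 0; those without background correction (-4.00, -2.40, -0.53 and -0.37) lie outside the band on the side of 0.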

How the data were processed

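All 6 arrays were compared, grouped by the genotype labels. The unnormalized table that the authors deposited holds, per the file headers, a probe intensity and a detection p-value for each array; the intensities are all above 0 and differ in range between arrays. The authors' second deposited table holds linear-scale intensity values, with column medians of 6.2 to 6.3, values below 0, no centring of genes and nearly the same sorted values in each column, the marks of background subtraction and quantile normalization, which no header states. The submitters' processing notes name GenomeStudio, and in the sources used here its version and settings are not given.

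The neqc method of limma 3.58.1 (R 4.3.3) was applied to the intensities: normexp background correction from the detection p-values, an offset of 16, quantile normalization and log2. Near background, the offset compresses differences. A probe was kept where it had 1 annotated symbol and was detected (p under 0.05) on 3 arrays or more, and the brightest stood for its gene, giving 9978 genes. Genotypes were compared with lmFit and eBayes, two-sided, with Benjamini-Hochberg adjustment over all genes and a threshold of 0.05. The fit was tested on simulated data.

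The 4 genes and 7 lists of related genes were chosen with earlier results of these data known. Named genes are up to 4 called genes per list by size of difference (2 by p where none was called), the brightest 2 of a marker list where shown, and the 3 genes closest to each of the 4. Genes on the chromosome beside the 4 were added after the data were seen. Alternatives changed the background, offset, normalization, filter, probe summary, source table, variance model and arrays included.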

Additional observations from a re-analysis of the deposited data

How the results depend on the processing

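The differences of the 4 genes stayed below 0 under all alternatives run. Without background correction they were -4.00 for Mettl21c, -2.40 for Smyd2, -0.53 for Smyd3 and -0.37 for Smyd1. With arrays scaled to the median of all probes they were -4.85, -2.51, -0.86 and -0.21. With an offset of 50 they were -4.43 for Mettl21c, -2.51 for Smyd2 and -0.72 for Smyd3. With the mean of probes they were -4.74 for Mettl21c and -2.25 for Smyd2, which averages in a dimmer probe with a smaller difference. With arrays scaled to probes detected on all arrays Smyd2 was at -2.76. Otherwise they moved by less than 1 SD; a larger offset compresses dim probes by construction, and the cause of the other shifts was not tested. Leaving out 1 array at a time gave -5.17 to -4.94 for Mettl21c, -2.71 to -2.55 for Smyd2, -1.29 to -1.01 for Smyd3 and -0.67 to -0.43 for Smyd1. Smyd3 was not measured with only probes detected on all 6 arrays. Counts of calls stayed within 1.5 times over all genes (4868 to 5728) and in 6 of the 7 lists; that of muscle transcription factors was 1 with the mean of probes. With the replicate number as a block 5337 genes were called against 5613, and the 4 differences did not change. Same-numbered arrays did not deviate together (correlations of -0.05, 0.03 and -0.002). With 3 arrays per group these correlations cannot exclude that the numbers pair the arrays. A fit with the chip as a block was left out, because the file headers name no chip. Signal near background limits Smyd3, Mettl21c in TG and the second probes of Smyd1 and Smyd3.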
